A study of Mus musculus with 30 samples.

Results

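Myeloid cells that infiltrated 4T1 tumors were compared directly with those that infiltrated C26-GM tumors, both grown in BALB/c mice. The comparison used the 3 arrays of 4T1 infiltrate and the 3 arrays of C26-GM infiltrate, 6 of the 30 arrays in the series, chosen by their titles. 4T1 is a mouse mammary carcinoma line of the BALB/c strain, and C26-GM is a BALB/c colon carcinoma line engineered to release the cytokine GM-CSF. All 6 samples were CD11b+ cells enriched from tumor infiltrate with antibody-coated magnetic beads, and their labelled cRNA was hybridised to Affymetrix MOE430 2.0 arrays. CD11b, encoded by Itgam, is an integrin chain that marks monocytes, macrophages and granulocytes. The labels give neither the age and sex of the mice nor how many were pooled per array, and nothing says that the 3 arrays of a tumor came from separate mice. P-values and SEs therefore measure a spread between arrays of a group, part of which may be technical. It was estimated for each gene over all 30 arrays of the series, not from these 6 alone. A wider spread in 1 tumor is thus evened out, as for Arg1 (SD 1.08 in C26-GM and 0.07 in 4T1). No healthy spleen sample entered the difference, so a higher level in one tumor may equally be read as a lower level in the other.

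Growing tumors draw in immature and mature myeloid cells, a mixed population often called myeloid-derived suppressor cells when it restrains T cells. GM-CSF binds a receptor that signals through JAK2 and STAT5, and it drives the survival, growth and differentiation of granulocytes and macrophages. STAT5 dimers bind DNA at palindromes of the form TTCNNNGAA, and the STAT feedback genes Cish and Socs1 are among their best known targets. Arginase 1, nitric oxide synthase 2 and prostaglandin synthesis are the classic means by which such cells restrain T cells.

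The values were the authors' log2 RMA levels, on which a difference of 1 is a 2-fold change. Differences are given as 4T1 minus C26-GM. One probe set stood for each gene (of 191 called genes on the lists and among the largest changes, 91 had several, of which 46 had one short of 2-fold in the called direction and 11 one of opposite sign), and genes of the X and Y chromosomes or of unknown chromosome were left out, which left 17404 genes. Probe sets that disagree are named below for some of these genes only. A gene was called when its adjusted p, from limma with Benjamini-Hochberg adjustment over all 17404 genes, was below 0.05 and its difference was at least 2-fold. Rose and fell refer to called genes only. A level under 5.40 is called dim below: for 40% of genes the higher of the 2 tumor means lay under it. In either tumor alone, at least that share of genes had a mean under it.

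The arrays of 4T1 infiltrate resembled each other closely, with Pearson correlations over all probe sets of 0.9927 to 0.9949. Among C26-GM arrays, replicates 1 and 2 correlated at 0.9909, but replicate 3 reached only 0.9598 and 0.9651 with them. On C26-GM replicate 3, the 3' actin probe set exceeded the 5' one by 2.42 log2 units, against 0.22 to 0.32 on the other 5 arrays, a gap that widens when RNA is degraded. Its values are shown throughout, and several of the results that depend on it are given with and without it. The sex of the mice differed between the tumors as well: Xist was at 10.54, 10.55 and 10.44 on the 4T1 arrays and 5.15, 5.47 and 6.47 on the C26-GM arrays. Eif2s3y, on the Y chromosome, was at 2.16, 2.39 and 2.25 on the 4T1 arrays and 8.64, 8.94 and 8.95 on the C26-GM arrays. Sex and tumor cannot be told apart in any difference below.

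Markers of the labelled cell type were high in both tumors. The 8 markers of CD11b+ myeloid cells had a mean level of 11.82 to 12.06 on the 4T1 arrays and 11.62 to 12.21 on the C26-GM arrays. Of these 8, only Csf3r, the G-CSF receptor, differed beyond the threshold. Itgam itself was at 10.19, 10.61 and 10.26 on the 4T1 arrays and 11.61, 11.26 and 9.15 on the C26-GM arrays, so the groups overlapped through C26-GM replicate 3 alone. Without that array the difference of Itgam was -1.08 (adjusted p = 0.0095), a fall in 4T1, against -0.32 ± 0.40 with all arrays.

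Transcripts of other cell types were unequal between the tumors. Of 14 epithelial markers, 9 rose in 4T1 and none fell, and their mean level was 7.16 to 7.58 on the 4T1 arrays and 5.11 to 5.17 on the C26-GM arrays. Krt18 and Krt8, keratins of simple epithelia, showed it most: Krt18 was at 11.14, 10.56 and 11.29 in 4T1 and 4.71, 4.45 and 3.98 in C26-GM, and Krt8 at 10.98, 9.90 and 10.71 in 4T1 and 4.46, 4.98 and 4.59 in C26-GM. Krt7, Krt19, Krt14, Cldn4, Cldn7, Esrp1 and Dsp rose with them, by 1.69 to 4.27. Cdh1, which encodes E-cadherin, is on the same list and was chosen after its values were seen. It lay the other way without overlap, at 8.53, 8.38 and 8.52 in 4T1 and 9.28, 9.46 and 9.94 in C26-GM. Its difference of -1.08 ± 0.47 was not called. In C26-GM, 10 of the 14 epithelial markers were dim, against 1 in 4T1. Of 14 fibroblast markers, 8 rose, among them Postn (3.48 ± 0.26), Col3a1 (3.41 ± 0.53), Lum (2.19 ± 0.35) and Col1a2 (2.15 ± 0.42), and 1 fell. Their mean level was 6.99 to 7.55 on the 4T1 arrays and 5.93 to 6.39 on the C26-GM arrays. The one that fell was Acta2, smooth muscle actin, at 8.42, 8.26 and 8.65 on the 4T1 arrays and 10.88, 11.51 and 11.56 on the C26-GM arrays, a difference of -2.87 ± 0.24. Its 3 probe sets ran from -2.87 to -0.28, and another probe set of Col1a2 gave -0.15. Within 4T1, both lists were lowest on replicate 2. The part of tumor or stromal cell RNA in the differences below was not tested.

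The counts in lists of other lineages stand beside a share of 13% called over all genes tested, 9.01% higher and 3.95% lower in 4T1. Lists this short do not show whether these lineages differed less than genes at large. Of 11 endothelial markers 1 rose (Emcn, 1.05 ± 0.32), of 12 T cell markers 1 fell (Cd3d, -1.10 ± 0.34), of 7 NK cell markers 1 rose (Klrk1, 1.08 ± 0.33), and none of 4 erythroid and 6 platelet markers was called. Of 10 markers of mast cells, basophils and eosinophils, Prg2 rose (1.22 ± 0.43) and Kit fell (-1.60 ± 0.33). Without C26-GM replicate 3, 1 endothelial marker fell and Prg2 was not called (adjusted p = 0.053, limma). Of 10 B and plasma cell markers 3 rose, Ighm, Jchain and Cd79b. The mean levels were 4.67 to 5.19 in 4T1 and 4.28 to 4.87 in C26-GM for the B and plasma cell list, and 5.16 to 5.28 in 4T1 and 5.24 to 5.34 in C26-GM for the T cell list. The platelet list stood above both of these in either tumor, at 6.96 to 7.22 in 4T1 and 6.81 to 7.23 in C26-GM, and its member Pf4, chosen after its values were seen, was at 11.29, 11.41 and 11.34 in 4T1 and 11.12, 10.04 and 10.91 in C26-GM. Apart from Kit and Ighm, each of these single calls was lost when a particular array was left out: Emcn without 4T1 replicate 3 (0.83), Cd3d without 4T1 replicate 1 (-0.97), Klrk1 without C26-GM replicate 1 (0.86), Prg2 without 4T1 replicate 3 (0.93), Jchain without 4T1 replicate 1 (0.75) and Cd79b without 4T1 replicate 1 (0.87). Ighm was 2.12 on the probe set used, but its 11 probe sets ran from -0.78 to 3.26.

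**Figure D1:**
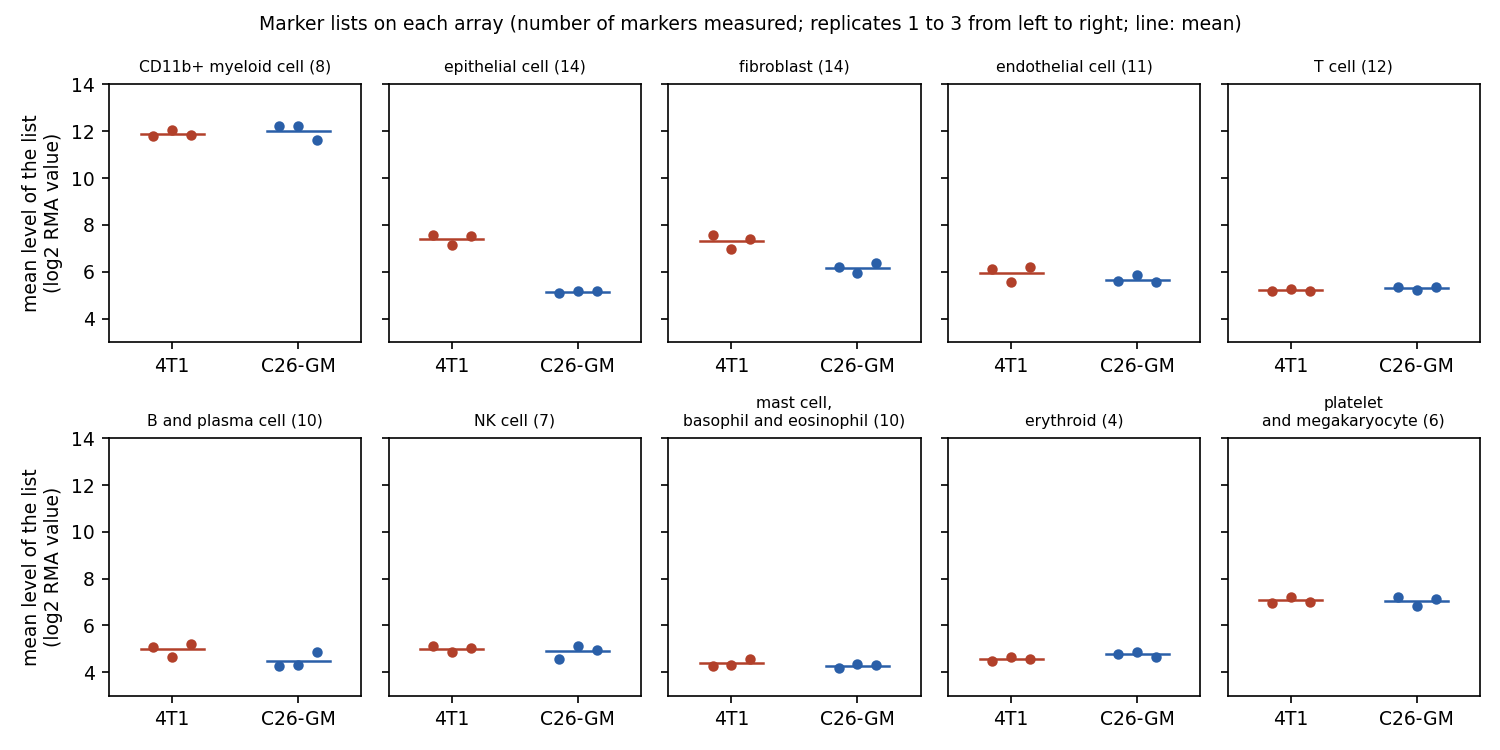
Mean log2 RMA level of 10 lists of cell type markers on each of the 6 arrays (y axis), with 4T1 left of C26-GM, points for replicates 1 to 3 and lines for the group means. The epithelial and fibroblast lists sit higher on the 4T1 arrays without overlap, while the CD11b+ list overlaps between the tumors.

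Of the 17404 genes, 2256 were called (13%): 1568 were higher in 4T1 (9.01%) and 688 were lower (3.95%). The median difference over all genes was -0.11. The 3 values of each tumor did not overlap for 9677 genes (55.6%), and 2231 of the 2256 called genes were among them. Differences of at least 8-fold were seen in 113 genes higher in 4T1 and 40 genes lower. Leaving out each array in turn gave 2063 to 2482 called genes. Without C26-GM replicate 3, 1952 of the 2256 genes were called in the same direction.

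**Figure D2:**
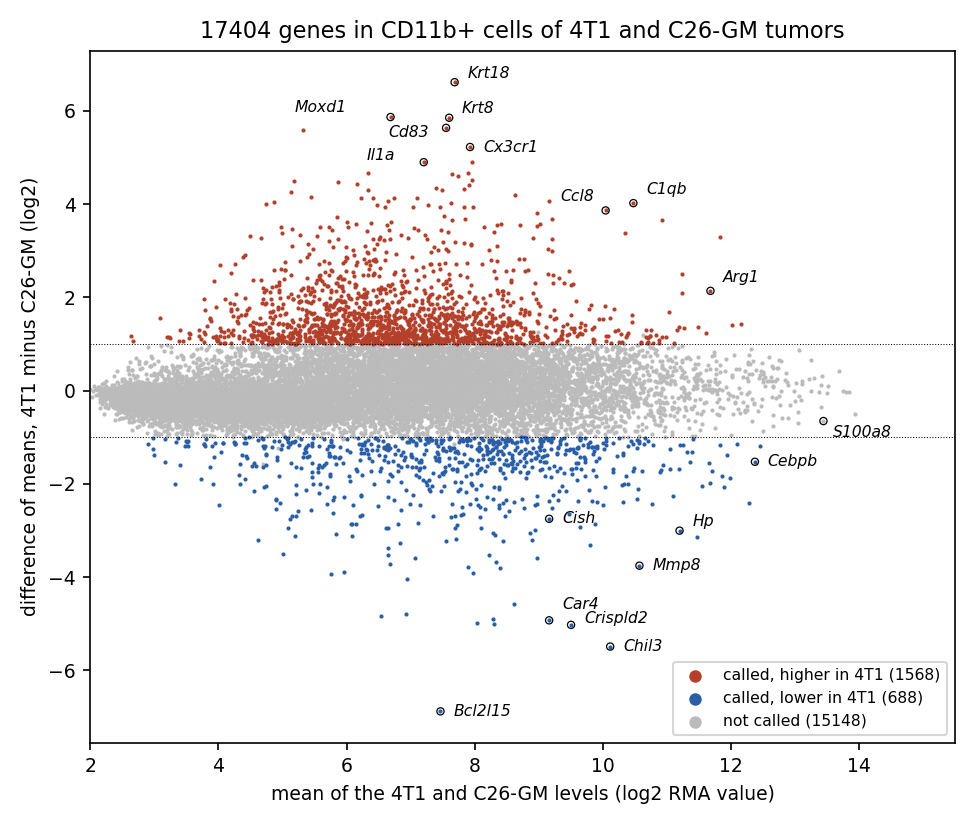
Each point is 1 of 17404 genes, with the mean of its 4T1 and C26-GM levels (log2 RMA value) on the x axis and the difference of means, 4T1 minus C26-GM (log2), on the y axis. Red points are the 1568 called genes higher in 4T1, blue points the 688 lower in 4T1, and dotted lines mark the 2-fold limits.

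The 15 largest rises mixed myeloid with epithelial and other tissue genes. Besides the keratins, they held Cx3cr1, the fractalkine receptor of patrolling monocytes and tissue macrophages, at 10.77, 10.49 and 10.36 on the 4T1 arrays and 5.12, 5.14 and 5.69 on the C26-GM arrays, a difference of 5.22 ± 0.23 (SE, adjusted p = 3.8e-15). Cd83, a surface protein of activated dendritic cells and B cells, was at 10.67, 10.44 and 10.01 on the 4T1 arrays and 4.32, 4.83 and 5.06 on the C26-GM arrays, a difference of 5.64 ± 0.33 (SE, adjusted p = 1.3e-12). The 15 rises and 15 falls were picked among called genes without overlap, so this separation on every array followed from the choice. Il1a, the alarmin cytokine interleukin 1 alpha, was at 9.68, 9.88 and 9.40 in 4T1 and 4.85, 4.66 and 4.77 in C26-GM, and differed by 4.90 ± 0.18 (SE, adjusted p = 6.8e-17). Fcrls, an Fc receptor-like scavenger receptor, rose by 4.51 ± 0.32, and Lyve1, a hyaluronan receptor of lymphatic endothelium and some tissue macrophages, by 4.48 ± 0.41. Iigp1, an interferon-inducible GTPase, rose by 4.60 ± 0.41, and Sesn3, a stress-responsive inhibitor of mTORC1, by 4.66 ± 0.26. The others were Moxd1, a monooxygenase-like protein, at 5.87, Dmp1, a bone matrix phosphoprotein, at 5.59, Wfdc2, a secreted protein of epithelia, at 4.90, Col14a1, a fibril-associated collagen, at 4.67, Tcim at 4.67 and Tmprss11e, an epithelial membrane protease, at 4.49. Krt18, Krt8, Cd83, Il1a, Col14a1, Lyve1, Moxd1, Dmp1 and Tmprss11e were dim on each of the 3 C26-GM arrays. The C26-GM means of Cx3cr1 and Sesn3, both 5.32, were dim as well. 4T1 replicate 2, lowest for the epithelial list, was the lowest 4T1 array for 10 of the 15: both keratins, Moxd1, Dmp1, Wfdc2, Tcim, Tmprss11e, Sesn3, Iigp1 and Fcrls.

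The 15 largest falls were led by Bcl2l15, a BCL2 family member, at 3.85, 4.42 and 3.81 on the 4T1 arrays and 11.44, 11.32 and 9.96 on the C26-GM arrays, a difference of -6.88 ± 0.48 (SE, adjusted p = 2.9e-11). Chil3, the chitinase-like protein Ym1 of neutrophils and alternatively activated macrophages, was at 7.00, 7.69 and 7.43 on the 4T1 arrays and 13.11, 12.87 and 12.61 on the C26-GM arrays, a difference of -5.49 ± 0.23 (SE, adjusted p = 1.4e-15). Chil3 thus stood near the top of the scale on all C26-GM arrays and in its middle on all 4T1 arrays, 45-fold apart. Crispld2, a secreted LPS-binding protein, differed by -5.03 ± 0.37, and Ffar2, a short-chain fatty acid receptor of neutrophils, by -4.89 ± 0.28. Among the others were Entpd3, an ecto-nucleotidase (-5.00 ± 0.36), Lipg, endothelial lipase (-4.98 ± 0.37), Car4, carbonic anhydrase 4 (-4.93 ± 0.31), Rdh12, a retinol dehydrogenase (-3.91 ± 0.37), St3gal6, a sialyltransferase (-3.81 ± 0.33), and Mmp8, neutrophil collagenase (-3.76 ± 0.31). Mycn, a MYC family transcription factor, was at 6.12, 6.15 and 5.77 in 4T1 and 9.43, 9.63 and 10.32 in C26-GM, a difference of -3.78 ± 0.29. Adtrp (-4.84 ± 0.37), Dmkn (-4.58 ± 0.33), Ovgp1 (-4.04 ± 0.34) and Tg, the thyroglobulin gene (-3.89 ± 0.38), completed the 15. C26-GM replicate 3 was the lowest C26-GM array for 11 of the 15, all but Crispld2, Ffar2, Dmkn and Mycn, and Tg was at 8.62, 8.60 and 6.48 on the 3 C26-GM arrays. Other probe sets of Mycn and St3gal6 did not fall, reaching -0.13 and 0.16.

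Part of a list of genes that respond to GM-CSF was lower in 4T1. C26-GM was engineered to release this cytokine, but its part in these differences was not tested. It cannot be told apart from tumor line and sex. Of 18 measured members of a list of 19 receptor and response genes, 0 rose, 8 fell and 10 did not pass the test, with a median difference of -0.85. Without C26-GM replicate 3, as without 4T1 replicate 2, 1 member rose. The receptor chains themselves changed less: Csf2rb, the shared signalling chain, was at 10.73, 11.15 and 10.64 on the 4T1 arrays and 11.47, 11.56 and 11.38 on the C26-GM arrays, a difference of -0.63 ± 0.12 (SE, adjusted p = 0.00026) that stayed under 2-fold. Csf2ra, the GM-CSF binding chain, chosen after its values were seen, was at 10.11, 10.35 and 9.91 in 4T1 and 10.53, 10.81 and 9.53 in C26-GM and overlapped between the tumors.

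Of 4 STAT-dependent feedback inhibitors of cytokine signalling on the list, Cish and Socs1 fell, while Socs2 (-0.32 ± 0.32) and Socs3 (-0.19 ± 0.33), chosen after their values were seen, did not pass the test. Cish was at 7.74, 7.83 and 7.81 on the 4T1 arrays and 10.21, 10.67 and 10.74 on the C26-GM arrays, a difference of -2.75 ± 0.18 (SE, adjusted p = 1.3e-11). Its 3 levels in 4T1 lay close together and far under every C26-GM level. Socs1 was at 5.13, 5.23 and 5.43 on the 4T1 arrays and 8.27, 8.44 and 6.47 on the C26-GM arrays, a difference of -2.47 ± 0.34 (SE, adjusted p = 2.5e-06), with C26-GM replicate 3 again between the groups. Bcl2l1, which encodes the survival protein BCL-XL, was at 7.91, 7.92 and 7.75 in 4T1 and 9.59, 9.89 and 9.73 in C26-GM and differed by -1.88 ± 0.13 (SE, adjusted p = 3.5e-11). Pparg, the nuclear receptor that GM-CSF induces in alveolar macrophages, was at 4.27, 4.86 and 4.81 in 4T1 and 8.50, 7.82 and 6.20 in C26-GM, a difference of -2.86 ± 0.38 (SE, adjusted p = 1.5e-06). Fabp4, a fatty acid carrier and PPAR-gamma target, fell by 2.15, Ccl17, a CCR4 ligand, by 2.12, and Retnla, the secreted protein RELM-alpha, by 2.01 on the log2 scale. The 4 probe sets of Fabp4 ran from -2.32 to -0.12. Car4, one of the 15 largest falls, was at 6.05, 7.19 and 6.86 on the 4T1 arrays and 11.69, 11.67 and 11.53 on the C26-GM arrays. Cdh1, chosen after its values were seen, was lower by -1.08 ± 0.47 and missed the threshold (adjusted p = 0.076).

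Promoters of this group are shown because they hold the STAT palindrome; each window starts 250 bases before the RefSeq gene start and ends 30 bases into the gene (GRCm38.p6, plus strand), with matches to TTCNNNGAA in capitals. Cish lies at chr9:107296409-107296688 and Ccl17 at chr8:94810203-94810482.
Cish: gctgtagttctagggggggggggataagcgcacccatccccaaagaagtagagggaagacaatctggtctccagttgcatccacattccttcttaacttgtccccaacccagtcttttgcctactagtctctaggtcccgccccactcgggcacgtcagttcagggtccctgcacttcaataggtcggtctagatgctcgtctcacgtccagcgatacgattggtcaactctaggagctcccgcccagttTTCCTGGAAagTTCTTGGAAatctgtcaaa
Ccl17: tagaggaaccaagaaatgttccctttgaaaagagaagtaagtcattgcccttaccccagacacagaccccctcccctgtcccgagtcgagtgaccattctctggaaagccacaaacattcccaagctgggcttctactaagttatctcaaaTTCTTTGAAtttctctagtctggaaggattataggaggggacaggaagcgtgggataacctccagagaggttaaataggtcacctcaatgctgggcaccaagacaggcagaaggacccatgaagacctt
The Cish window held 2 matches, whose first bases lie 1 and 12 bases into the gene, and the Ccl17 window held 1, at -99. The motif is its own reverse complement, so both strands give the same matches. Of the 8 genes of the list that fell, 7 had an entry in the RefSeq promoter table, and 2 of the 7 held a match. Of all 27025 genes of the table, 9.0% held one in at least 1 promoter cut to the same 280 bases (7.8% of 32851 promoters). Car4, Socs1, Bcl2l1, Pparg and Retnla had no match in this window.

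**Figure D3:**
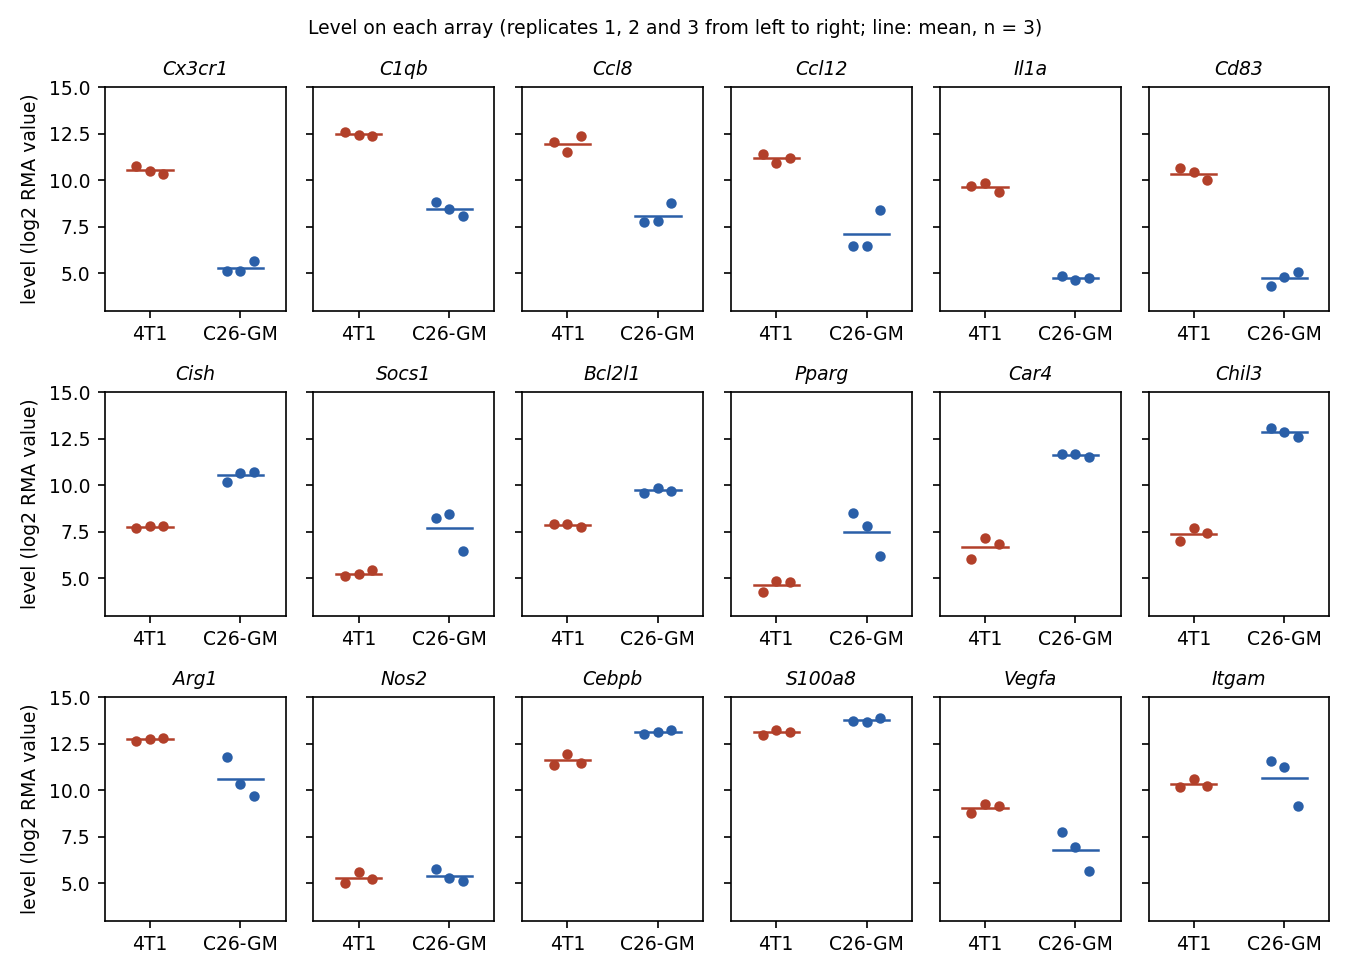
Log2 RMA level (y axis) of 18 genes on each array, with 4T1 left of C26-GM, points for replicates 1 to 3 and lines for means (n = 3). The upper row shows genes higher in 4T1 and the middle row genes lower in 4T1, none of them overlapping; in the lower row Nos2 and Itgam overlap.

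The CCR2 ligands Ccl2, Ccl7 and Ccl12 and the related Ccl8 were higher in 4T1. Of 16 CC chemokines and receptors, 8 rose, 1 fell and 7 did not pass the test, with a median difference of 0.97. Ccl12 was at 11.40, 10.95 and 11.23 on the 4T1 arrays and 6.47, 6.49 and 8.40 on the C26-GM arrays, a difference of 4.07 ± 0.36 (SE, adjusted p = 1.6e-09). Ccl7 was at 9.71, 9.43 and 9.78 on the 4T1 arrays and 5.33, 5.17 and 6.37 on the C26-GM arrays, a difference of 4.02 ± 0.28 (SE, adjusted p = 2.9e-11). Ccl2 was at 10.63, 10.68 and 10.67 on the 4T1 arrays and 8.03, 7.46 and 7.39 on the C26-GM arrays, a difference of 3.03 ± 0.33 (SE, adjusted p = 8.2e-08). All 3 were separated by a wide gap, and C26-GM replicate 3 was the highest C26-GM array for Ccl12 and Ccl7 but not for Ccl2. Ccl8, a ligand of several CC receptors, was at 12.05, 11.51 and 12.38 in 4T1 and 7.75, 7.80 and 8.80 in C26-GM, a difference of 3.86 ± 0.33 (SE, adjusted p = 9.9e-10). Ccl5, which attracts T cells and monocytes, rose by 1.57 ± 0.24, and Ccrl2, an atypical receptor that presents chemerin, by 1.35 ± 0.26. The receptor Ccr2 was at 11.24, 11.35 and 11.03 on the 4T1 arrays and 9.94, 9.95 and 10.65 on the C26-GM arrays, close to the 2-fold limit, and its difference was 0.91 without C26-GM replicate 1, 0.91 without replicate 2 and 0.95 without 4T1 replicate 2. Its 4 probe sets ran from 0.32 to 2.44. Ccl17 alone fell, at 7.27, 6.57 and 7.06 in 4T1 and 8.59, 9.35 and 9.31 in C26-GM. Other attractants of monocytes on the list, Ccl3 (-0.14 ± 0.29), Ccl4 (0.18 ± 0.21), Ccl6 (-0.69 ± 0.16) and Ccl9 (-0.28 ± 0.19), chosen after their values were seen, were not called, and of these only Ccl6 did not overlap between the tumors.

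In the neutrophil-attracting CXC group, the receptor Cxcr2 and the ligand Cxcl3 were lower in 4T1. Of 8 measured members, 1 rose, 2 fell and 5 did not pass the test, with a median difference of 0.01. Cxcr2, the neutrophil receptor for these ligands, was at 7.64, 8.62 and 8.20 on the 4T1 arrays and 11.18, 11.37 and 9.85 on the C26-GM arrays, a difference of -2.64 ± 0.36 (SE, adjusted p = 2.3e-06). Its ligand Cxcl3 was at 10.24, 10.87 and 10.86 on the 4T1 arrays and 11.96, 11.86 and 12.13 on the C26-GM arrays, a difference of -1.33 ± 0.21 (SE, adjusted p = 2.1e-05). The ligand Cxcl1 was higher, at 9.19, 8.71 and 8.88 in 4T1 and 7.67, 7.97 and 8.06 in C26-GM, but lost its call without 4T1 replicate 1 (0.90) or C26-GM replicate 1 (0.91). Its 3 probe sets ran from 1.03, the one used, to 4.55. In bulk samples, fewer cells of a type and less RNA per cell cannot be told apart, which bears on Cxcr2 and on every cell type gene below.

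The inflammatory cytokines that were called were all higher in 4T1. Of 15 measured, 4 rose, 0 fell and 11 did not pass the test, with a median difference of 0.30. Besides Il1a, these were Lif, an IL-6 family cytokine (1.96 ± 0.19 (SE, adjusted p = 7.6e-09)), Csf3, which encodes G-CSF (1.92 ± 0.29 (SE, adjusted p = 9e-06)), and Il23a, the p19 chain of IL-23 (1.82 ± 0.15 (SE, adjusted p = 5.8e-10)). The other probe set of Lif gave 0.10. Csf3 was at 6.60, 5.72 and 6.39 on the 4T1 arrays and 4.15, 3.99 and 4.82 on the C26-GM arrays. Il1a, Lif, Il23a and Csf3 were all dim on each C26-GM array. Il1b, the partner of Il1a, chosen after its values were seen, was at 13.17, 13.40 and 13.05 on the 4T1 arrays and 12.73, 13.26 and 13.03 on the C26-GM arrays: it was high on all 6 arrays, overlapped, and differed by 0.20 ± 0.26 (adjusted p = 0.56).

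Among growth factors and angiogenic genes, Vegfa and Nrp1 were higher in 4T1. Of 14 measured, 7 rose, 1 fell and 6 did not pass the test, with a median difference of 1.11. Vegfa, the main endothelial growth factor, was at 8.79, 9.28 and 9.17 on the 4T1 arrays and 7.77, 6.95 and 5.69 on the C26-GM arrays, a difference of 2.27 ± 0.38 (SE, adjusted p = 4e-05). The C26-GM values spread widely, yet the highest of them stayed below the lowest 4T1 value. Nrp1, a co-receptor for VEGF and semaphorins, was at 9.77, 9.44 and 9.97 in 4T1 and 6.87, 6.20 and 7.07 in C26-GM, a difference of 3.01 ± 0.24 (SE, adjusted p = 2.1e-10). Adm, which encodes the vasodilator adrenomedullin (2.18 ± 0.31), Pdgfb, a mesenchymal mitogen (2.07 ± 0.24), Vegfc, a lymphatic growth factor (1.97 ± 0.32), Ereg, an EGF receptor ligand (1.71 ± 0.23), and Nrp2 (1.43 ± 0.17) rose as well. Vegfc and Ereg were dim on all 6 arrays, and the C26-GM mean of Pdgfb, 5.27, was dim. Thbs1, the angiogenesis inhibitor thrombospondin 1, fell and was at 9.52, 10.07 and 9.63 on the 4T1 arrays and 12.08, 11.89 and 10.46 on the C26-GM arrays, a difference of -1.73 ± 0.39 (SE, adjusted p = 0.001). The epithelial and fibroblast markers moved with this group, and carcinoma cells and stroma also express several of its members.

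Genes of resident and tumor macrophages formed the broadest block higher in 4T1. Of 20 macrophage identity genes, 15 rose, 0 fell and 5 did not pass the test, with a median difference of 1.89, against a median of -0.11 over all genes. The chains of C1q, the recognition part of the classical complement pathway that macrophages make, rose together. C1qa was at 12.86, 12.73 and 12.71 on the 4T1 arrays and 9.29, 9.07 and 8.94 on the C26-GM arrays, a difference of 3.67 ± 0.17 (SE, adjusted p = 1.2e-14). C1qb differed by 4.02 ± 0.23 (SE, adjusted p = 7.5e-13) and C1qc by 3.38 ± 0.21 (SE, adjusted p = 2.6e-12). For each of the 3 chains the lowest 4T1 value exceeded the highest C26-GM value by several log2 units. Apoe, the lipid carrier apolipoprotein E, was at 13.58, 13.45 and 13.40 on the 4T1 arrays and 11.06, 9.93 and 9.55 on the C26-GM arrays, a difference of 3.30 ± 0.31 (SE, adjusted p = 4.5e-09). Adgre1, which encodes F4/80, was at 10.06, 9.89 and 9.85 on the 4T1 arrays and 8.55, 8.31 and 7.32 on the C26-GM arrays, a difference of 1.88 ± 0.20 (SE, adjusted p = 5.3e-08). Surface receptors of macrophages followed: Folr2, a folate receptor (3.68 ± 0.27), Ms4a7 (3.55 ± 0.21), Cd163, the haptoglobin-hemoglobin receptor (2.71 ± 0.44), Axl, a receptor for apoptotic cells (2.50 ± 0.28), Timd4, a phosphatidylserine receptor (1.56 ± 0.27), and Fcgr1, the high-affinity Fc receptor (1.13 ± 0.20). The transcription factor Maf rose by 1.56 ± 0.32 and Selenop, a selenium carrier, by 1.41 ± 0.20. Trem2, a lipid-sensing receptor, rose by 1.91 ± 0.26 on the probe set used, but its other probe set gave -0.39. Other probe sets of Ms4a7, Axl and Maf were lower too, down to 0.29, 0.16 and 0.05. Csf1r, the receptor for M-CSF, was higher in 4T1 without overlap, at 13.02, 12.89 and 12.96 on the 4T1 arrays and 12.24, 12.06 and 12.40 on the C26-GM arrays, but under 2-fold (0.72 ± 0.12). Mrc1, the mannose receptor, chosen after its values were seen, was at 11.80, 11.58 and 11.70 in 4T1 and 11.65, 10.75 and 11.22 in C26-GM and overlapped. The remaining members, Cd68 (0.22 ± 0.23), Mertk (-0.00 ± 0.20) and Gpnmb (-0.63 ± 0.27), chosen after their values were seen, overlapped too and were not called.

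Neighbouring myeloid lists were more divided. Of 17 lipid-associated and lysosomal genes, 5 rose, 2 fell and 10 did not pass the test, with a median difference of 0.20. Ctsk, the collagen-degrading cathepsin K, was at 9.42, 10.87 and 9.42 on the 4T1 arrays and 6.86, 6.24 and 6.08 on the C26-GM arrays, a difference of 3.51 ± 0.36 (SE, adjusted p = 2.8e-08), with 4T1 replicate 2 highest. Lpl, lipoprotein lipase (1.79 ± 0.22), and Abca1, a cholesterol exporter (1.15 ± 0.25), rose with Apoe and Trem2, while Plin2, a lipid droplet coat protein (-1.14 ± 0.16), and Abcg1, another cholesterol exporter (-1.42 ± 0.18), fell. Of 9 monocyte genes, 4 rose, 1 fell and 4 did not pass the test, with a median difference of 0.69: Cx3cr1, Nr4a1, Fn1 and Ccr2 rose and Vcan fell. Nr4a1, the nuclear receptor needed for patrolling monocytes, was at 10.86, 10.86 and 10.40 on the 4T1 arrays and 7.52, 8.07 and 7.55 on the C26-GM arrays, a difference of 2.99 ± 0.26 (SE, adjusted p = 1.5e-09). Vcan, the proteoglycan versican of classical monocytes, was at 7.30, 8.12 and 8.09 on the 4T1 arrays and 10.42, 10.04 and 9.86 on the C26-GM arrays, a difference of -2.27 ± 0.40 (SE, adjusted p = 7.7e-05). Its 8 probe sets ran from -2.54 to -0.16. Of 11 complement and Fc receptor genes, 6 rose, 1 fell and 4 did not pass the test, with a median difference of 1.13. Beyond C1q and Fcgr1, C3ar1, the C3a receptor, rose by 1.76 ± 0.29 and Cfb, complement factor B, by 1.67 ± 0.22, whereas C5ar1, the C5a receptor of neutrophils and monocytes, fell (-1.51 ± 0.33).

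The genes by which myeloid cells are known to restrain T cells gave a mixed picture. Of 19 suppressive effectors, 4 rose, 1 fell and 14 did not pass the test, with a median difference of 0.68. Arg1, arginase 1, was at 12.67, 12.77 and 12.82 on the 4T1 arrays and 11.80, 10.35 and 9.69 on the C26-GM arrays, a difference of 2.14 ± 0.35 (SE, adjusted p = 2.5e-05). It was high and even in 4T1, whereas the C26-GM arrays spread widely below it, without overlap. Nos2, which encodes inducible nitric oxide synthase, was at 5.01, 5.59 and 5.25 on the 4T1 arrays and 5.76, 5.32 and 5.11 on the C26-GM arrays, dim or nearly so in both tumors, and its difference of -0.11 ± 0.29 did not pass the test (adjusted p = 0.78). Arg2, the mitochondrial arginase, fell and was at 9.98, 10.26 and 9.96 in 4T1 and 11.26, 11.28 and 11.10 in C26-GM, a difference of -1.14 ± 0.29 (SE, adjusted p = 0.0029). Nt5e, the ecto-enzyme CD73 that makes adenosine, was at 10.03, 10.12 and 10.14 in 4T1 and 8.01, 7.88 and 7.51 in C26-GM, a difference of 2.30 ± 0.34 (SE, adjusted p = 5.8e-06). Its 3 probe sets ran from -0.12 to 2.30. Il10, an anti-inflammatory cytokine, rose by 1.18 ± 0.23 but was dim on all 6 arrays. Ptgs2, which encodes the prostaglandin enzyme COX-2, was at 11.16, 11.43 and 11.40 on the 4T1 arrays and 9.15, 10.96 and 10.01 on the C26-GM arrays, and its adjusted p of 0.046 moved above the threshold when any array other than C26-GM replicate 2 was left out. Without C26-GM replicate 1 its difference was 0.85 (adjusted p = 0.22), against 1.29 with all arrays. Cd274, which encodes PD-L1, differed by 0.73 ± 0.23 and Il4ra, the IL-4 receptor chain, by -0.03 ± 0.31, neither at 2-fold.

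Alternative activation genes, which IL-4 and IL-13 induce in macrophages, split into a rising and a falling set. Of 16, 7 rose, 3 fell and 6 did not pass the test, with a median difference of 0.94. Arg1, Alox15, an arachidonate lipoxygenase (2.19 ± 0.32), Egr2, a zinc finger transcription factor (2.13 ± 0.26), the lectins Clec10a (1.98 ± 0.22) and Mgl2 (1.63 ± 0.33), Fn1, fibronectin (1.42 ± 0.32), and Tgm2, transglutaminase 2 (1.36 ± 0.28), were higher in 4T1. The 6 probe sets of Tgm2 ran from 0.18 to 2.06. Chil3, Ccl17 and Retnla were lower in 4T1. Retnla was at 8.72, 9.55 and 9.90 on the 4T1 arrays and 12.27, 11.55 and 10.39 on the C26-GM arrays, a difference of -2.01 ± 0.51 (SE, adjusted p = 0.0032), and its lowest C26-GM value came from replicate 3.

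Many genes of mature neutrophils were lower in 4T1, with exceptions on the same list. Of 16 genes of later granules and mature neutrophils, 3 rose, 8 fell and 5 did not pass the test, with a median difference of -1.13. Mmp8 was at 8.09, 9.10 and 8.91 on the 4T1 arrays and 13, 12.62 and 11.73 on the C26-GM arrays, a difference of -3.76 ± 0.31 (SE, adjusted p = 4.3e-10). Cd177, a neutrophil surface antigen, was at 7.50, 8.67 and 8.29 on the 4T1 arrays and 11.60, 11.85 and 10.93 on the C26-GM arrays, a difference of -3.31 ± 0.32 (SE, adjusted p = 1e-08). 4T1 replicate 2 was the highest 4T1 array for both genes. Wfdc21, an antiprotease-like secreted protein (-3.15 ± 0.30), Hp, haptoglobin (-3.00 ± 0.25), Il1r2, the decoy receptor for interleukin 1 (-2.42 ± 0.25), Lcn2, the siderophore-binding protein lipocalin 2 (-1.88 ± 0.44), and Csf3r, the G-CSF receptor (-1.60 ± 0.24), fell with Chil3.

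Other genes of the same list were higher in 4T1. Ltf, the secondary granule iron-binding protein lactoferrin, was at 8.85, 9.74 and 9.67 on the 4T1 arrays and 7.73, 7.76 and 6.87 on the C26-GM arrays, a difference of 1.97 ± 0.49 (SE, adjusted p = 0.0028). Camp, the antimicrobial peptide cathelicidin of secondary granules, was at 8.26, 9.10 and 9.57 on the 4T1 arrays and 7.11, 7.19 and 6.96 on the C26-GM arrays, a difference of 1.89 ± 0.31 (SE, adjusted p = 3.3e-05). Padi4, which citrullinates histones, was at 7.83, 7.12 and 7.79 in 4T1 and 5.19, 5.60 and 5.39 in C26-GM, a difference of 2.18 ± 0.33 (SE, adjusted p = 1.1e-05). None of the 3 overlapped between tumors. Ngp, another secondary granule protein, chosen after its values were seen, was at 10.51, 11.38 and 11.42 in 4T1 and 11.55, 11.20 and 9.64 in C26-GM and overlapped. Of 9 primary granule genes, 1 rose, 2 fell and 6 did not pass the test, with a median difference of -0.10. The serine protease Prtn3 rose by 1.10 ± 0.33, a call lost without 4T1 replicate 2 (0.86) or C26-GM replicate 1 (0.94). Ms4a3, a marker of granulocyte-monocyte precursors, fell by 1.55 and Gfi1, a transcription factor of granulocyte maturation, by 2.00 on the log2 scale, both at levels that were dim in 4T1. The C26-GM mean of Gfi1, 4.92, was dim as well.

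**Figure D4:**
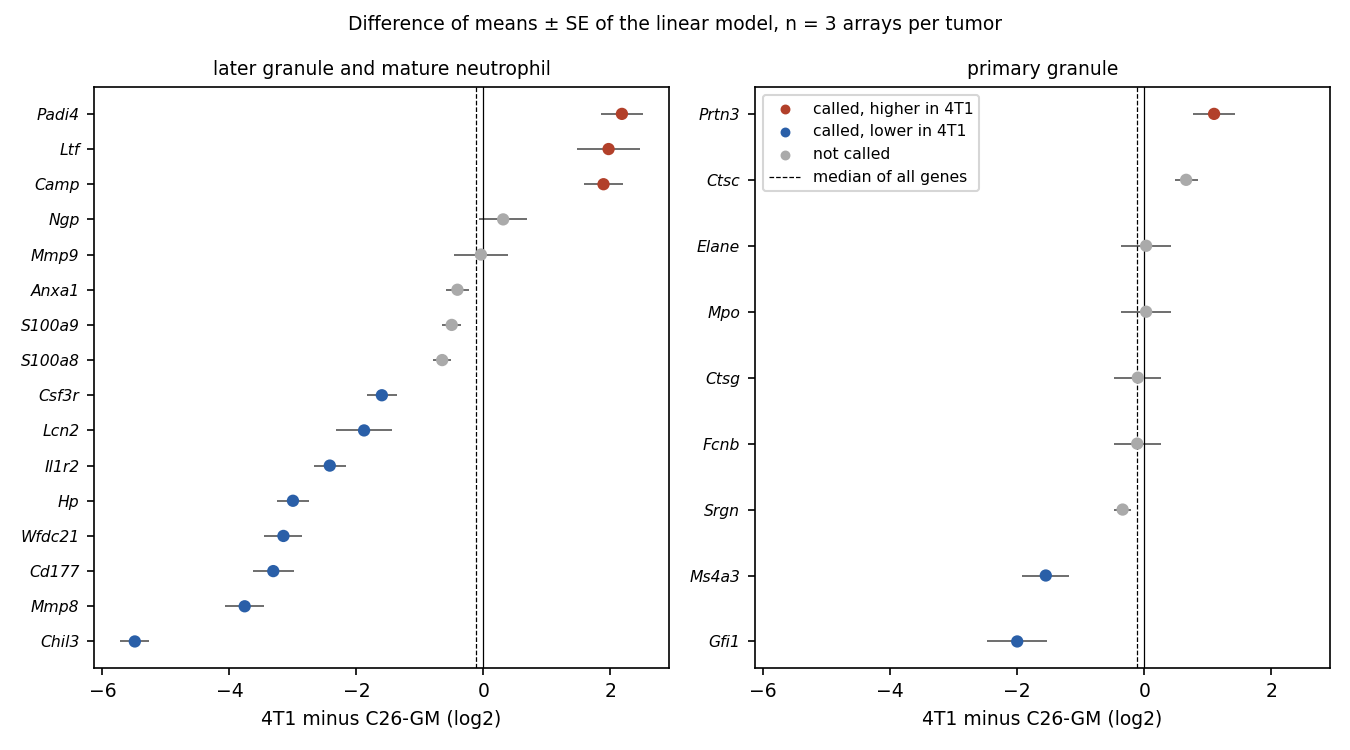
Difference of means, 4T1 minus C26-GM (log2, x axis), with the SE of the linear model for 16 later granule and mature neutrophil genes and 9 primary granule genes (n = 3 arrays per tumor). Ltf, Camp and Padi4 lie to the right of 0 while 8 genes from Csf3r to Chil3 lie to the left.

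The calcium-binding S100 proteins, which neutrophils and monocytes hold in large amounts, did not reach a 2-fold difference. None of 7 was called, and all 7 had negative differences, with a median of -0.50. S100a8 was at 12.96, 13.26 and 13.14 on the 4T1 arrays and 13.75, 13.70 and 13.88 on the C26-GM arrays, a difference of -0.65 ± 0.14 (SE, adjusted p = 0.00051), and S100a9 at 13.49, 13.84 and 13.75 in 4T1 and 14.18, 14.22 and 14.18 in C26-GM, a difference of -0.50 ± 0.15 (SE, adjusted p = 0.01). Neither gene overlapped between tumors, and both stood near the top of the scale on every array. None of 4 NADPH oxidase subunits, which make superoxide in phagocytes, was called (median -0.12). Of 17 pattern recognition receptors, 4 rose, 2 fell and 11 did not pass the test, with a median difference of 0.00. The fungal sensor Clec7a (1.23 ± 0.17), the lectin Clec4e (1.22 ± 0.24), the RNA sensor Tlr3 (1.23 ± 0.23) and the scavenger receptor Msr1 (1.03 ± 0.23) rose. Fpr2, a formyl peptide receptor of neutrophils (-1.98 ± 0.26), and Tlr6 (-1.67 ± 0.22) fell. Without C26-GM replicate 2 only 2 of these receptors rose, since Tlr3 (0.96) and Msr1 (0.96) fell short of 2-fold.

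Several genes of antigen presentation were higher in 4T1. Of 17, 6 rose, 0 fell and 11 did not pass the test, with a median difference of 0.77, and 1 fell without C26-GM replicate 3. Cd86, a costimulatory ligand for CD28, was at 9.84, 9.72 and 9.63 on the 4T1 arrays and 7.42, 7.76 and 7.01 on the C26-GM arrays, a difference of 2.33 ± 0.30 (SE, adjusted p = 7.9e-07). Ccr7, the receptor that guides dendritic cells to lymph nodes, was at 6.82, 5.73 and 6.53 in 4T1 and 4.07, 4.53 and 4.04 in C26-GM, a difference of 2.15 ± 0.36 (SE, adjusted p = 3.8e-05). H2-DMa, which loads peptides on MHC class II (1.29 ± 0.20), Cd209a, a lectin of monocyte-derived dendritic cells (1.48 ± 0.30), Cd40, a costimulatory receptor (1.05 ± 0.18), and Cd83 rose too. Cd40 was at 0.95 without C26-GM replicate 1.

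Called genes of the interferon lists mostly moved in opposite directions. Of 15 interferon gamma response genes, 5 rose, 1 fell and 9 did not pass the test, with a median difference of 0.81. Cxcl9, a CXCR3 ligand that attracts activated T cells, was at 9.56, 9.15 and 9.47 on the 4T1 arrays and 4.68, 5.33 and 6.95 on the C26-GM arrays, a difference of 3.74 ± 0.43 (SE, adjusted p = 2e-07). The ligands of the same receptor Cxcl11 (2.35 ± 0.35) and Cxcl10 (1.67 ± 0.42), and the GTPases Gbp2 (1.45 ± 0.27) and Gbp3 (1.19 ± 0.30), rose, and the inhibitor Socs1 fell. The other probe set of Cxcl11 gave 0.07 and that of Cxcl9 0.59. C26-GM replicate 1 was the lowest array for each of the 5 genes that rose. Without it 3 genes of the list rose, and Cxcl10 was at 0.80 and Gbp3 at 0.76. Of 17 type I interferon-stimulated genes, 0 rose, 4 fell and 13 did not pass the test, with a median difference of -0.32. Ifit1, an inhibitor of viral translation, was at 7.34, 7.76 and 8.02 on the 4T1 arrays and 8.28, 9.49 and 10.13 on the C26-GM arrays, a difference of -1.59 ± 0.34 (SE, adjusted p = 0.00058). Irf7, the transcription factor that drives type I interferon genes, was at 8.84, 8.99 and 8.84 in 4T1 and 9.51, 10.69 and 10.43 in C26-GM, a difference of -1.31 ± 0.27 (SE, adjusted p = 0.00034). Oas3, which senses double-stranded RNA, fell by 1.36. Ifit3 (-1.06 ± 0.30) lost its call without C26-GM replicate 2 (-0.73) or C26-GM replicate 3 (-0.91), and stood just under 2-fold without 4T1 replicate 1. The mean level of this list was 7.96, 9.22 and 9.03 on C26-GM replicates 1 to 3 and 8.16 to 8.36 on the 4T1 arrays, so the C26-GM arrays lay on both sides of 4T1.

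Among hypoxia and glycolysis genes, Car9, P4ha2, Vegfa, Adm and Hk2 were the members higher in 4T1. Of 23 measured, 5 rose, 1 fell and 17 did not pass the test, with a median difference of 0.54. Car9, the carbonic anhydrase that oxygen shortage induces, was at 7.87, 7.49 and 7.82 on the 4T1 arrays and 5.14, 4.95 and 5.73 on the C26-GM arrays, a difference of 2.45 ± 0.18 (SE, adjusted p = 7.6e-11). P4ha2, a collagen prolyl hydroxylase, was at 6.38, 6.20 and 6.10 on the 4T1 arrays and 3.89, 3.77 and 3.85 on the C26-GM arrays, a difference of 2.39 ± 0.22 (SE, adjusted p = 3.5e-09). Vegfa and Adm rose with them, and Hk2, the hexokinase of the first step of glycolysis, by 1.06 ± 0.20. The call of Hk2 was lost without 4T1 replicate 2 (0.98). Pfkfb3, a regulator of glycolysis, fell by 1.04, a call lost when any array other than 4T1 replicate 2 and C26-GM replicate 3 was left out, as without 4T1 replicate 1 (-0.90). Slc2a1, the glucose transporter GLUT1, chosen after its values were seen, was at 11.42, 11.88 and 11.61 in 4T1 and 11.21, 11.22 and 11.50 in C26-GM and did not pass the test (adjusted p = 0.41). Hif1a, which encodes the oxygen-sensitive chain of the hypoxia factor, differed by 0.27 ± 0.16 (adjusted p = 0.18). Col3a1, keratins and other stromal and epithelial genes moved with this list in the same arrays.

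The promoters of Car9 and P4ha2 are shown because hypoxia-inducible factors bind DNA at a core of ACGTG, marked here in capitals on either strand, in windows of 250 bases before to 30 bases after the RefSeq gene start (GRCm38.p6, plus strand). Car9 lies at chr4:43506776-43507055 and P4ha2 at chr11:54100674-54100953.
Car9: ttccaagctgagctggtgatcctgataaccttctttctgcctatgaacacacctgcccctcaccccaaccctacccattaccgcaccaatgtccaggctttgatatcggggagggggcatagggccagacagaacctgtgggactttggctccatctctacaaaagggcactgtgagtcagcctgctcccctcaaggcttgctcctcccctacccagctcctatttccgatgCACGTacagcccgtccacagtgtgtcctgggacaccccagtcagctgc
P4ha2: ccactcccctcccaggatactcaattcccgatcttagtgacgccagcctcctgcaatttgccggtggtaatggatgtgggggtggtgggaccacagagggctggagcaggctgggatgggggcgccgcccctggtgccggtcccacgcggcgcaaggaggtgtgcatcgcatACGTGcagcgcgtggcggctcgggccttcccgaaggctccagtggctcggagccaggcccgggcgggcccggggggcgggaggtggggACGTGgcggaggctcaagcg
Car9 held 1 match, at -18, read as CACGT on the printed strand, and P4ha2 held 2, at -78 and at base 11 of the gene. All 5 genes of the list that rose had a promoter entry, and 4 of the 5 (Hk2, Car9, Vegfa and P4ha2) held a match in at least 1 promoter. Of all 27025 genes of the table, 20.6% held one in at least 1 promoter cut to the same window (18.5% of 32851 promoters).

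Of 12 genes of cholesterol synthesis, 4 rose, 0 fell and 8 did not pass the test, with a median difference of 0.97. Sqle, squalene epoxidase, was at 8.68, 8.45 and 8.49 on the 4T1 arrays and 6.85, 6.95 and 7.04 on the C26-GM arrays, a difference of 1.60 ± 0.26 (SE, adjusted p = 2.3e-05). Hmgcs1, which makes HMG-CoA (1.42 ± 0.29), Idi1, an isomerase of isoprenoid precursors (1.16 ± 0.27), and Cyp51, a sterol demethylase (1.02 ± 0.32), rose beside it. The count was 7 without C26-GM replicate 3 and 7 without 4T1 replicate 2, and Cyp51 was at 0.85 without C26-GM replicate 1.

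Of 12 stress response genes, 2 rose, 2 fell and 8 did not pass the test, with a median difference of -0.17. Atf3, an early stress-induced transcription factor, was at 11, 10.90 and 10.52 on the 4T1 arrays and 7.12, 7.36 and 7.24 on the C26-GM arrays, a difference of 3.56 ± 0.26 (SE, adjusted p = 6.8e-11). Asns, asparagine synthetase, rose by 1.10 ± 0.24. Xbp1, the transcription factor of the unfolded protein response, was at 11.27, 11.19 and 11.30 in 4T1 and 12.61, 12.72 and 12.61 in C26-GM, a difference of -1.39 ± 0.12 (SE, adjusted p = 5.1e-10), and Sesn2, a relative of Sesn3, fell by 1.33. Atf3 and Xbp1 were each tight within a tumor and moved in opposite directions.

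Of 8 iron and heme genes, 3 rose, 2 fell and 3 did not pass the test, with a median difference of 0.35. Cd163 rose, as did Tfrc, the transferrin receptor (1.39 ± 0.22), and Blvrb, a biliverdin reductase. Hp fell, as did Slc40a1, the iron exporter ferroportin (-1.02 ± 0.28). Blvrb and Slc40a1 lay at the 2-fold limit and were at 0.88 without C26-GM replicate 3 and at -0.93 without 4T1 replicate 1.

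Matrix proteases and their regulators changed in both directions. Of 16, 6 rose, 4 fell and 6 did not pass the test, with a median difference of 0.36. Mmp13, the interstitial collagenase, was at 10.83, 10.60 and 10.79 on the 4T1 arrays and 6.25, 6.97 and 8.40 on the C26-GM arrays, a difference of 3.53 ± 0.47 (SE, adjusted p = 1.3e-06). Mmp14, a membrane-bound protease (1.75 ± 0.19), Mmp12, macrophage elastase (1.29 ± 0.19), Mmp2, a gelatinase (1.08 ± 0.23), Plau, urokinase (1.01 ± 0.30), and Ctsk rose. Mmp8, Thbs1, Plaur, the urokinase receptor (-1.12 ± 0.17), and Adam8, a sheddase of leukocytes (-1.17 ± 0.18), fell. Without C26-GM replicate 3, 5 members of the list fell. Mmp2 without C26-GM replicate 2 (0.96) and Plau without C26-GM replicate 1 (0.94) or 4T1 replicate 1 (0.96) were no longer called, and Plaur stood just under 2-fold without C26-GM replicate 2. The fibroblast markers moved with the rising members, and fibroblasts also express Mmp2, Mmp13 and Mmp14.

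Transcription factors of the myeloid lineage split between rises and falls. Of 23, 5 rose, 5 fell and 13 did not pass the test, with a median difference of 0.19. Cebpb, which drives emergency granulopoiesis and suppressive programmes, was at 11.39, 11.98 and 11.47 on the 4T1 arrays and 13.05, 13.14 and 13.24 on the C26-GM arrays, a difference of -1.53 ± 0.17 (SE, adjusted p = 1.4e-07). Cebpd, its relative, fell by 1.80, and Spi1, which encodes the myeloid master factor PU.1, was at 9.78, 9.98 and 9.66 in 4T1 and 10.97, 11.01 and 11 in C26-GM, a difference of -1.19 ± 0.15 (SE, adjusted p = 1e-06). These factors were lower on every 4T1 array, and Pparg and Gfi1 fell too. Nr4a1, Egr2, Epas1, which encodes HIF-2 alpha (1.99 ± 0.30), Klf4, a monocyte differentiation factor (1.73 ± 0.33), and Maf rose. The other probe set of Epas1 gave 0.23. Irf8, which favours monocytes over granulocytes, was at 9.63, 9.79 and 9.44 in 4T1 and 8.75, 8.59 and 8.92 in C26-GM, higher without overlap but under 2-fold (0.87 ± 0.26). Stat3 differed by -0.50 ± 0.21 and did not pass the test (adjusted p = 0.07). Without C26-GM replicate 3 its difference was -0.73 (adjusted p = 0.014, limma), still under 2-fold.

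Of 12 leukocyte integrins and CD45, 3 rose, 1 fell and 8 did not pass the test, with a median difference of 0.02. Itgav (1.81 ± 0.21), Itgb5 (1.35 ± 0.20) and Itgb1 (1.31 ± 0.29), which pair as receptors for vitronectin, fibronectin and other matrix proteins, rose, and Itgb7, a chain of gut-homing integrins, fell (-1.28 ± 0.18). Without C26-GM replicate 3, Itgb1 was at 0.84 and was not called, and 2 integrins fell. Other probe sets of Itgb1 and Itgav disagreed with the one used, running down to -0.19 and -0.47.

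Cell cycle genes, when called, were higher in 4T1. Of 22 measured, 11 rose, 0 fell and 11 did not pass the test, with a median difference of 1.03. Mcm6, a subunit of the replicative helicase, was at 9.54, 9.37 and 9.35 on the 4T1 arrays and 7.50, 7.50 and 6.96 on the C26-GM arrays, a difference of 2.10 ± 0.24 (SE, adjusted p = 2e-07). Top2a, topoisomerase 2 of dividing cells, was at 9.44, 9.07 and 9.26 on the 4T1 arrays and 8, 7.41 and 7.47 on the C26-GM arrays, a difference of 1.63 ± 0.25 (SE, adjusted p = 1.3e-05), and Cdk1, the mitotic kinase, at 8.90, 8.54 and 8.72 in 4T1 and 7.14, 7.08 and 7.14 in C26-GM, a difference of 1.60 ± 0.20 (SE, adjusted p = 8.2e-07). The groups overlapped for none of them. Ccnb2, Bub1, Mcm5, Cdc20, Birc5, Aurkb, Aurka and Mcm3, which act in replication and mitosis, rose by 1.06 to 1.86. Of the 11 genes that rose, 8 had several probe sets, and for 7 of the 8 at least 1 other probe set stayed short of 2-fold, down to -0.29 for Top2a, -0.27 for Aurka, 0.00 for Mcm6, 0.07 for Mcm3 and 0.10 for Mcm5. The epithelial markers, which dividing carcinoma cells express, moved with this list, and their part in it was not tested.

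**Figure D5:**
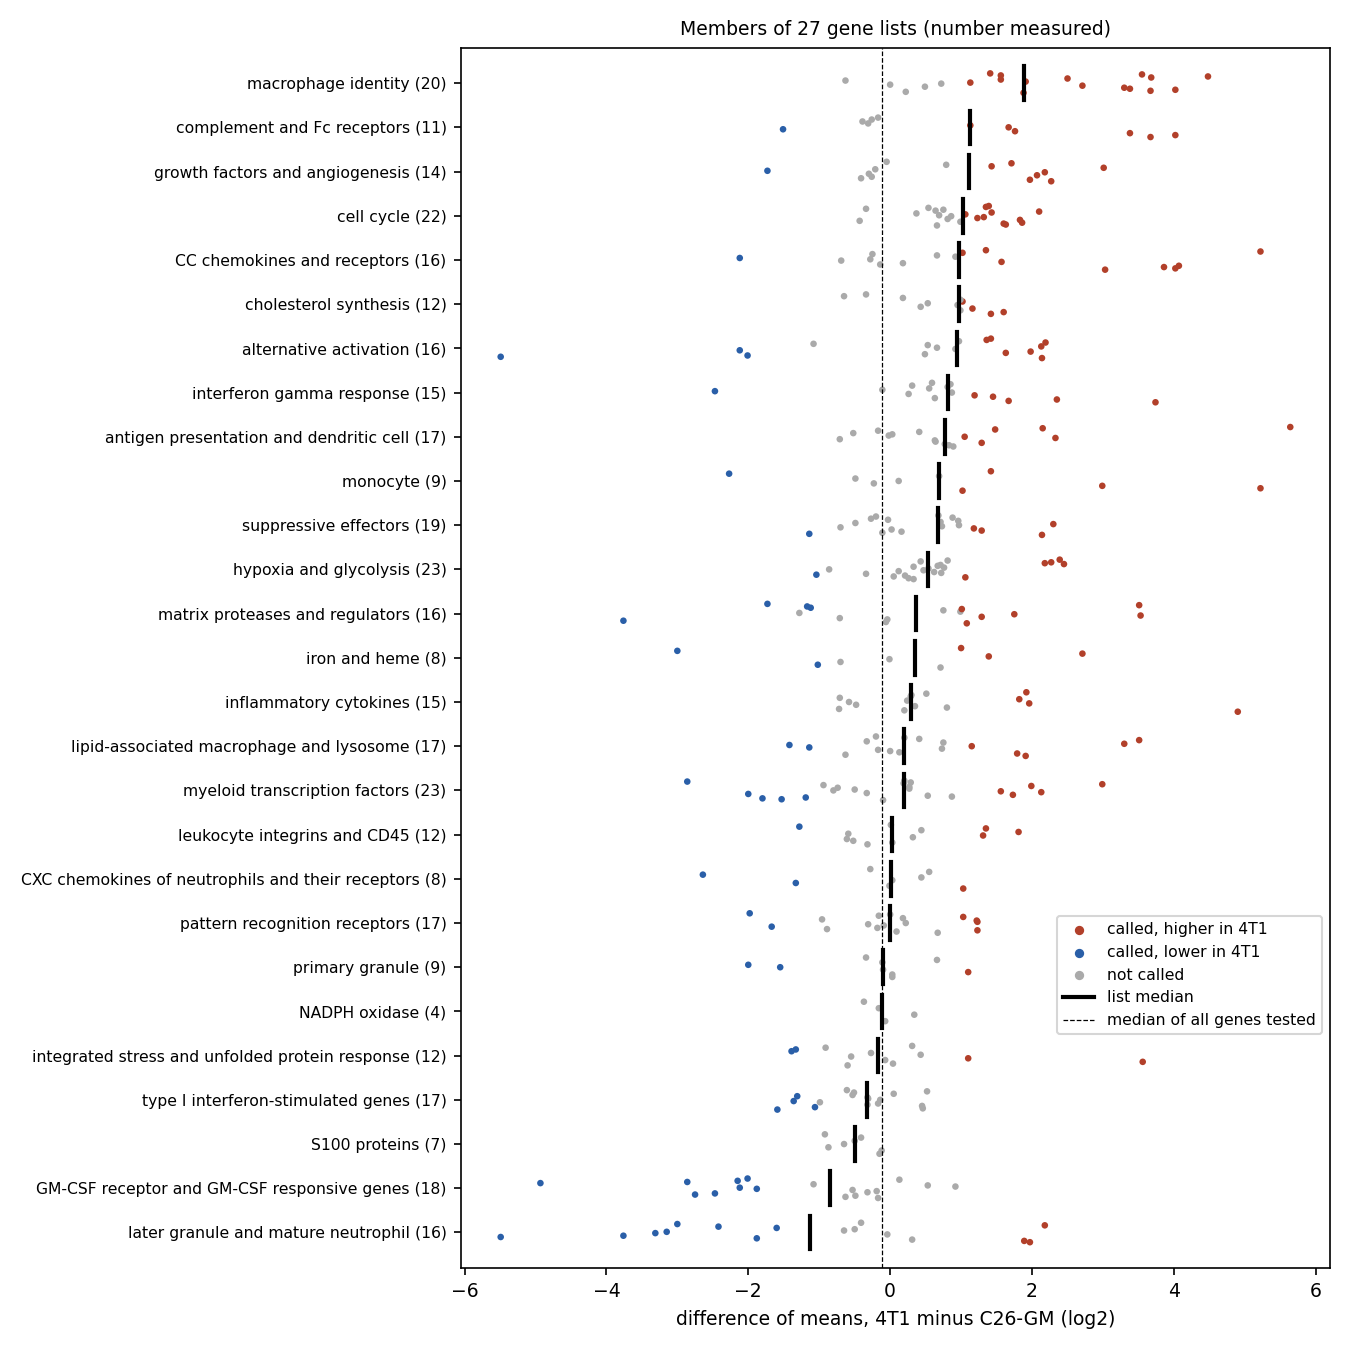
Members of 27 gene lists (rows, number measured in brackets) by their difference of means, 4T1 minus C26-GM (log2, x axis). Red points rose and blue points fell in 4T1, grey points were not called, black bars are list medians and the dashed line is the median of all genes; macrophage identity has the highest median, 1.89, and later granule and mature neutrophil the lowest, -1.13.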

How the data were processed

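Gene expression was measured in CD11b+ cells on 30 Affymetrix MOE430 2.0 arrays, 3 in each of 10 groups. The deposited values of 45101 probe sets are on a log2 scale and were made with RMA, per the submitters' processing notes, which name no version. RMA subtracts background, quantile-normalizes and summarises probes, so global shifts between samples are removed and high and low levels are compressed. The number of arrays limits the precision.

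Of the probe sets, 34958 had 1 gene symbol in the platform annotation, 932 several and 9211 none, and 34754 were found in RefSeq (GRCm38.p6). For each gene the probe set with the highest mean over the 30 arrays was kept. Of 18194 genes, 617 on X, 9 on Y and 164 of unknown chromosome were left out, which left 17404. limma 3.58.1 (R 4.3.3) fitted all 10 groups together, so the error is shared, and the 4T1 minus C26-GM contrast was tested with Benjamini-Hochberg adjustment. Named genes were the 15 largest rises and falls among called genes without overlap (predicted and unnamed transcripts passed over), called members of 37 gene and marker lists, and a fixed panel of 23 genes. Others are marked in the text as chosen after their values were seen, except Xist and Eif2s3y, shown as a check of the mice. The comparison and the lists were chosen with earlier results of these data known. The procedure was tested on simulated data. The alternatives covered normalization, arrays in the fit, dim genes, probe sets, thresholds, sex chromosomes, the replicate number as a block and each array left out.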

Additional observations from a re-analysis of the deposited data

How the results depend on the processing

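The 20 alternatives kept the counts of called genes within 1.5 times the reported ones, except dropping the 2-fold minimum, which gave 5939 called genes, 3413 higher and 2526 lower in 4T1. The others gave 1819 to 2482 called genes (mean of all probe sets and without C26-GM replicate 1). Of the 2256 genes, 72.6% were called the same way with the mean of all probe sets, 83.0% with quantile normalization over the 6 arrays, 83.4% without cross-hybridising probe sets, 86.5% without C26-GM replicate 3 and at least 90.2% under each of the others. Quantile normalization over the 6 arrays alone made 59.6% of calls higher in 4T1, against 69.5%. A fit without the 6 culture arrays, chosen after seeing the data because their value ranges differed within a group, called all of the 2256 genes the same way. Signs were followed for 210 named genes only, and for 5 of these the sign depended on an array left out. Nos2 ran from -0.27 to 0.07, Itgam from -1.08 to 0.15, Il4ra from -0.66 to 0.31, Csf2ra from -0.55 to 0.10 and Ngp from -0.27 to 0.68. Ngp was -0.20 with array weights. Without cross-hybridising probe sets Trem2 was -0.38 and Ighm -0.45, and Ighm was -0.21 on the probe set brightest over the 6 arrays. Deviations of same-numbered arrays correlated at 0.038, 0.104 and 0.069, and those of differently numbered arrays at -0.093 to -0.013. Values this small do not settle whether the replicate numbers pair the arrays. With the replicate number as a block, 2253 genes were called, 1565 higher and 688 lower, and 2253 of the 2256 were called the same way.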

Other observations

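The monocyte chemokine genes that differed most lie next to each other in the RefSeq order, so their neighbours were examined, a choice made after their values were seen. The order of the protein-coding genes is Ccl2, Ccl7, Ccl11, Ccl12, Ccl8 and Ccl1. Ccl11, an eosinophil attractant, was at 4.12, 3.94 and 3.68 on the 4T1 arrays and 3.41, 3.25 and 3.58 on the C26-GM arrays. Ccl1 was at 4.46, 4.72 and 4.40 on the 4T1 arrays and 4.71, 4.73 and 4.73 on the C26-GM arrays. Both were dim on all 6 arrays and neither reached a 2-fold difference (0.50 ± 0.19, adjusted p = 0.042 for Ccl11; -0.19 ± 0.23, adjusted p = 0.53 for Ccl1, limma), while Ccl2, Ccl7, Ccl12 and Ccl8 rose by 3.03 to 4.07.

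The C57BL/6 tumors of the series, EL-4 and MCA203, had mean levels that were both nearer to 4T1 than to C26-GM for 551 of the 688 genes lower in 4T1 (80.1%) and for 921 of the 1568 genes higher in 4T1 (58.7%), against 7760 of all 17404 genes (44.6%). Strain and tumor differ together there. Xist was at 10.38, 10.20 and 10.16 on the EL-4 arrays and 10.73, 10.42 and 10.64 on the MCA203 arrays. Their sex thus matched that of the 4T1 mice and not that of the C26-GM mice, and its part was not tested. The C26-GM means also include replicate 3. Chil3 averaged 7.37 in 4T1, 10.33 in EL-4, 8.79 in MCA203 and 12.86 in C26-GM. Other genes set 4T1 apart from all 3: Moxd1 averaged 9.62 in 4T1, 3.97 in EL-4, 3.55 in MCA203 and 3.75 in C26-GM, and Dmp1 averaged 8.12 in 4T1, 2.58 in EL-4, 2.74 in MCA203 and 2.53 in C26-GM. Krt18 was intermediate elsewhere, with 11 in 4T1, 9.11 in EL-4, 7.50 in MCA203 and 4.38 in C26-GM.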
